A study of Mus musculus with 10 samples.

Results

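Oxidative phosphorylation is carried out by 5 protein complexes of the inner mitochondrial membrane, and most of their subunits are encoded in the nucleus. The gene symbols of subunits of complexes I to V (Nduf, Sdh, Uqcr, Cox and Atp5 symbols) selected 82 of the 30319 genes in the deposited table, leaving out pseudogene symbols and the tissue-restricted subunits Cox7a1 and Cox8b. Sorted by the start of the symbol alone, these were 37 genes of complex I, 4 of complex II, 8 of complex III, 16 of complex IV and 17 of complex V. Ndufa4 and Ndufa4l2 are thus counted with complex I, and Atp5s and Atp5sl with complex V, by name only. A few names go beyond the classical subunits: Ndufa4l2 and Cox7a2l are relatives of subunits, and Atp5s and Atp5sl carry the Atp5 name only. In all, 79 genes reached at least 1 TPM (a level corrected for transcript length and for the library's total) in at least 2 libraries and were tested, 36, 4, 8, 14 and 17 of complexes I to V. The other 3 were Ndufa4, which was listed at or close to 0 in every library, Cox7b2, at no more than 0.512 TPM, and Cox8c, listed at 0 in every library. For Ndufa4 a failed estimate is possible and was not tested, so its value does not show that the gene was silent.

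RNA from the inguinal mammary fat pad of female FVB mice was sequenced after removal of ribosomal RNA. The mice were FAP-/- (Null), lacking fibroblast activation protein, a membrane protease of stromal cells, or wild-type (WT). They received a diet with 60% of kcal from fat (HFD) or an ingredient-matched diet with 10% (LFD) between 12 and 30 weeks of age. There were 3 Null_HFD, 2 WT_HFD, 3 Null_LFD and 2 WT_LFD libraries, which the submitters call biological replicates. The whole fat pad was used, so a value is an average over adipocytes, stroma, vessels, gland and any muscle or lymph node dissected with it, and fewer cells of a type and less RNA per cell cannot be told apart.

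The respiratory chain passes electrons from NADH through complex I, or from succinate through complex II, by way of ubiquinone to complex III, then by cytochrome c to complex IV, where oxygen is reduced. Complexes I, III and IV pump protons, and complex V, the ATP synthase, uses the returning protons to make ATP. White adipocytes have a modest mitochondrial content, brown and beige adipocytes a high one, and skeletal muscle carries its own forms of several complex IV subunits.

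Fap itself was measured at 26.7, 38.4 and 22.3 TPM in Null_HFD libraries, against 68.8 and 37.7 TPM in WT_HFD libraries. It was at 18.4, 22.4 and 18.3 TPM in Null_LFD libraries, against 45.4 and 39.2 TPM in WT_LFD libraries. It was lower in every Null_LFD than in every WT_LFD library, while Null_HFD 2 was above WT_HFD 2. A value per gene does not show from which part of the transcript the reads came. The adipocyte marker Plin1 was present in every library, at 60.3 to 194 TPM. Of the 10 libraries, Null_HFD 3 and WT_HFD 2 were unlike the rest in their lymph node and muscle markers. The B-cell gene Cd79a was at 153 TPM in Null_HFD 3 and 63.2 TPM in WT_HFD 2 and at most 1.9 TPM elsewhere, and the muscle creatine kinase gene Ckm was at 7.41 and 11.8 TPM there and at 120.4 TPM or more elsewhere. For the diet and the interaction, the counts of higher or lower genes and the medians over all subunit genes are given with and without them. The counts at an unadjusted p and most medians by complex are given with all libraries only.

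The subunit genes were abundant. Their summed level was 27383, 24527 and 17634 TPM in Null_HFD libraries, against 25613 and 18836 TPM in WT_HFD libraries. It was 30464, 22664 and 30112 TPM in Null_LFD libraries, against 33440 and 28509 TPM in WT_LFD libraries. WT_LFD 1 was thus the highest library, and Null_HFD 3 and WT_HFD 2 the lowest. The balance between complexes varied little: complex I made up 29.1% to 32.4% of the sum, complex II 3.48% to 4.27%, complex III 9.78% to 12.3%, complex IV 25.5% to 28.4% and complex V 25.9% to 31.1%. Complex V had its largest share, and complexes I and IV their smallest, in Null_HFD 3.

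Levels per gene, averaged over the 10 libraries, showed a wide range within each complex. In complex I the most abundant were Ndufb8 and Ndufb9, accessory subunits of the membrane arm, at 846 and 489 TPM, and the median gene was at 188 TPM. In complex II, which is also the succinate dehydrogenase of the citric acid cycle, the membrane anchor Sdhc and the flavoprotein Sdha led at 277 and 276 TPM. In complex III the small subunits Uqcr11 and Uqcrh led at 568 and 527 TPM. Complex IV was led by Cox4i1, the ubiquitous form of subunit 4, at 1155 TPM and Cox6c at 1032 TPM, and complex V by the catalytic β and α subunits of its head, Atp5b at 1280 TPM and Atp5a1 at 608 TPM. The tissue-restricted forms Cox4i2 (3.05 TPM), Cox6b2 (3.75 TPM) and Ndufa4l2 (3.98 TPM) were at the low end. Processed pseudogenes resemble many of these genes closely, and how reads were shared with them was not tested.

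Most of the 79 genes shared their high and low libraries. Each gene was centred on its mean over the 10 libraries on the log2(TPM + 1) scale, and the median of these deviations was taken in each library. It was 0.09, -0.03 and -0.49 in Null_HFD libraries, against 0.04 and -0.47 in WT_HFD libraries. It was 0.25, -0.13 and 0.23 in Null_LFD libraries, against 0.39 and 0.14 in WT_LFD libraries. WT_LFD 1 held the highest value of 46 of the 79 genes, and Null_HFD 3 and WT_HFD 2 held the lowest value of 45 and 29. Every complex had its lowest or second-lowest median in Null_HFD 3, and every complex had its highest in WT_LFD 1. Complex III spread most, between -0.72 in Null_HFD 3 and 0.56 in WT_LFD 1.

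**Figure D1:**
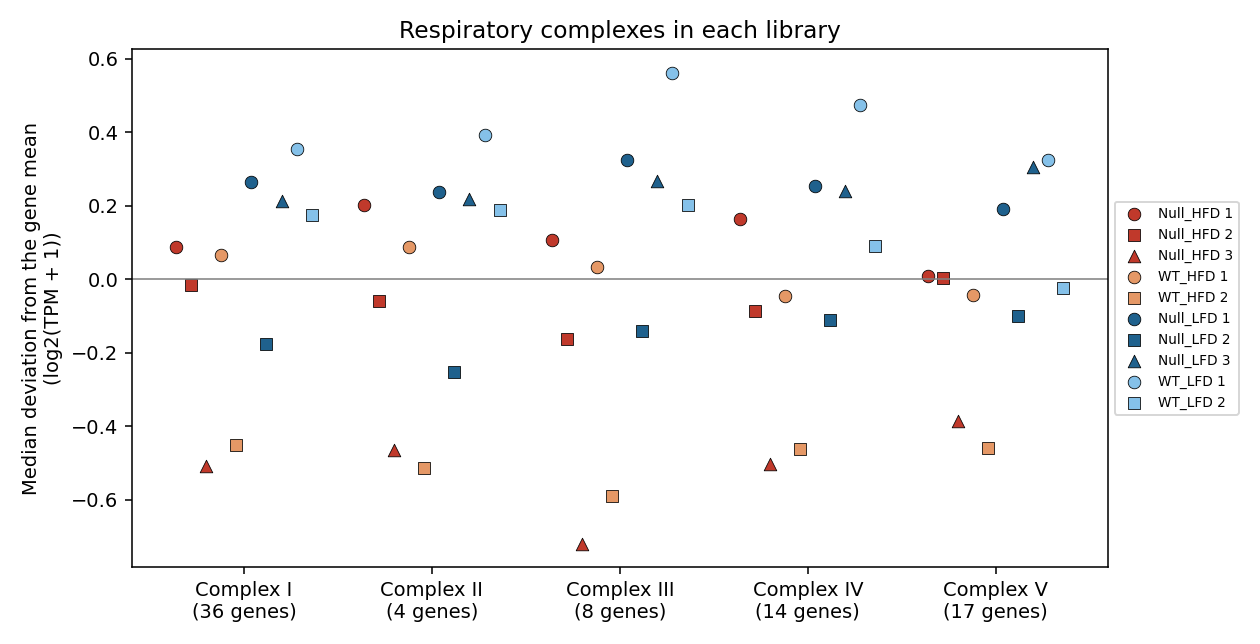
Median deviation of the tested genes of each complex from their 10-library means (vertical axis, log2(TPM + 1)) in each library; colours mark the 4 groups and symbols the replicate. In each complex Null_HFD 3 and WT_HFD 2 lie lowest and WT_LFD 1 highest, and complex III reaches from -0.72 to 0.56.

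**Figure D2:**
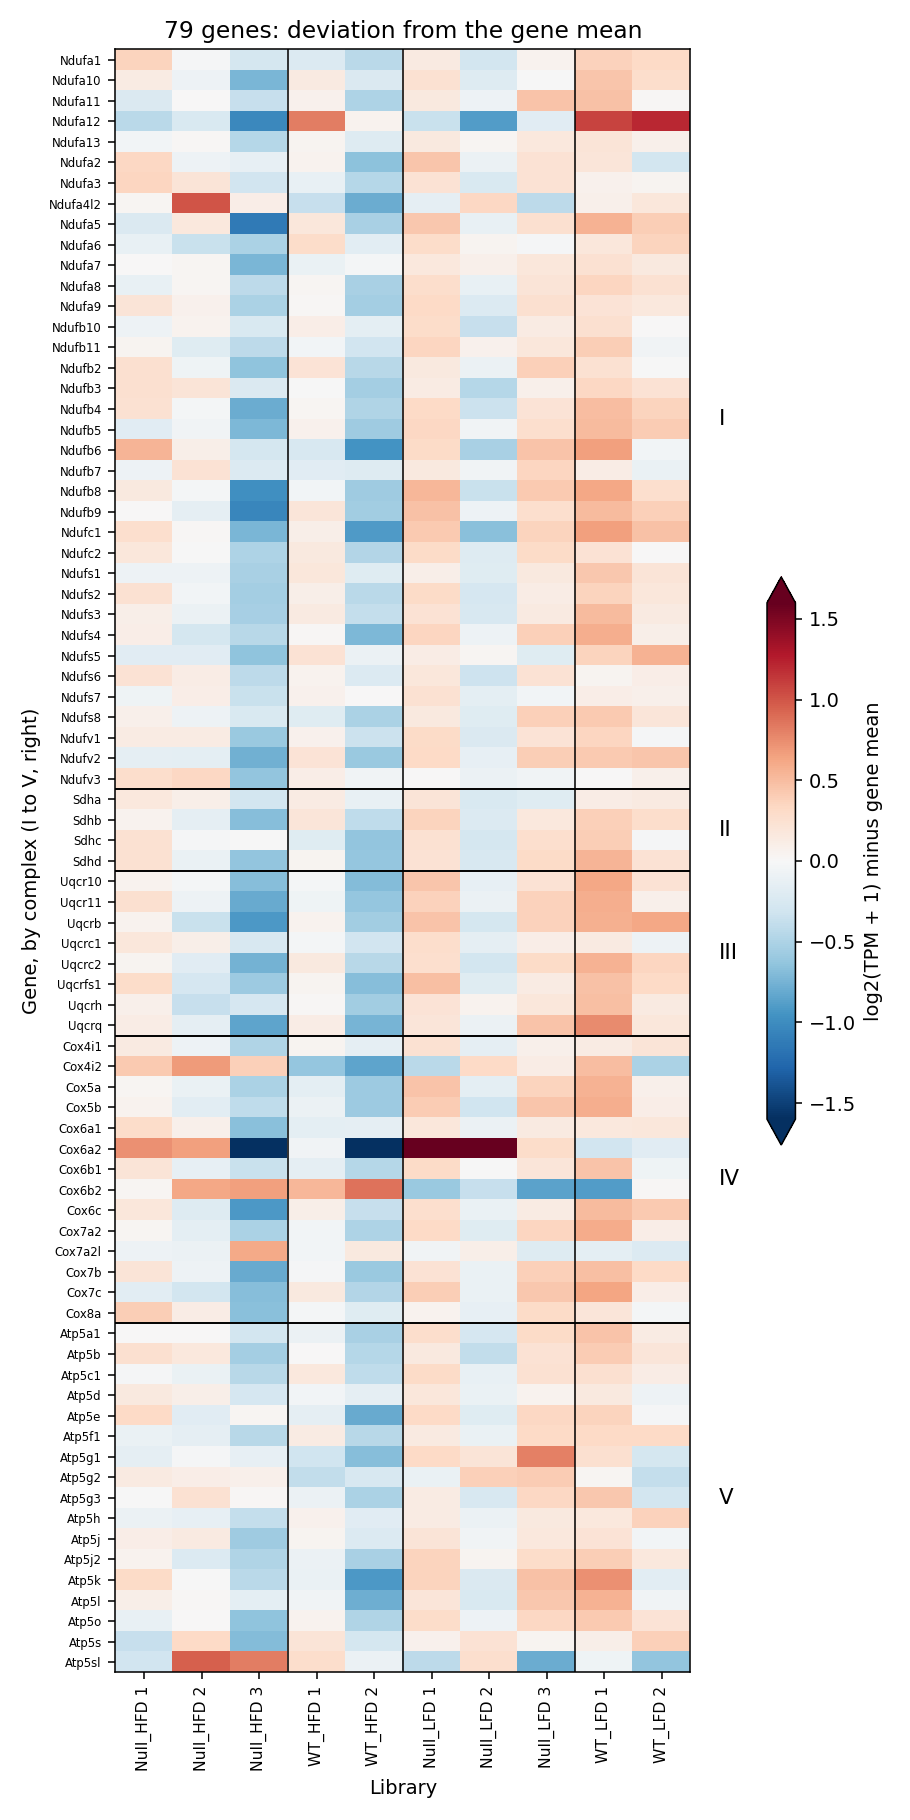
Deviation of each of the 79 tested genes (rows, by complex) from its own mean over the 10 libraries (columns), in log2(TPM + 1), with colours saturating at 1.6 in either direction. Most rows are low in Null_HFD 3 and WT_HFD 2 and high in WT_LFD 1, while Cox6b2 and Cox7a2l are high in the first 2 of these. Cox4i2 is low in WT_HFD 2 but not in Null_HFD 3. Ndufa12 is low in all Null libraries. Cox6a2 is lowest in Null_HFD 3 and WT_HFD 2 but not high in WT_LFD 1.

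Short motifs were looked for in the promoters of these genes. Their part in the shared behaviour was not tested. The genes of the respiratory chain are known targets of NRF-1, of the ETS factor GABP (also called NRF-2), of YY1 and of the estrogen-related receptors (ERR). RefSeq promoter windows of 300 bases (250 before and 50 after the transcript start, build GRCm38.p6) were on hand for 64 of the 82 genes, 69 windows in all, and were searched on both strands. The NRF-1 motif GCGCATGCG was in 8 windows (11.6%), against 1.75% of all 32851 windows. The ETS motif CCGGAAG was in 16 windows (23.2%), against 8.86% of all. The YY1 motif AAGATGGCG was in 7 windows (10.1%), against 1.4% of all, and the ERR motif TCAAGGTCA in 2 windows (2.9%), against 0.423% of all. Some windows hold more than 1 motif, and the NRF-1 motif often overlaps its own reverse complement. The ETS motif was found in all 5 complexes and the NRF-1 motif in complexes I, III, IV and V. The 30 bases around each NRF-1 match are printed as an example, with the match in capitals, read 5′ to 3′ on the gene's strand:
Ndufa8 (complex I, chr2:36049329-36049358, minus strand): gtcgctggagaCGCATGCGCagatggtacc
Ndufa11 (complex I, chr17:56717692-56717721, plus strand): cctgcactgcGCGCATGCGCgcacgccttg
Uqcr11 (complex III, chr10:80406808-80406837, minus strand): gatcgccttcaCGCATGCGCtatacgtctg
Uqcrc1 (complex III, chr9:108936668-108936697, plus strand): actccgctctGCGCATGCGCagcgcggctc
Cox6a1 (complex IV, chr5:115349101-115349130, minus strand): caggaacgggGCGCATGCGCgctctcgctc
Atp5g2 (complex V, chr15:102671070-102671099, minus strand): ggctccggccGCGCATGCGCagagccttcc
Atp5k (complex V, chr5:108434430-108434459, minus strand): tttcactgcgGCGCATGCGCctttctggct
Atp5l (complex V, chr9:44920963-44920992, minus strand): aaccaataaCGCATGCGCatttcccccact

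The match began 5 bases before the transcript start in Uqcr11, 9 before it in Ndufa8, 42 in Atp5g2, 50 in Atp5k, 60 in Ndufa11, 162 in Cox6a1 and 241 in Atp5l, and in Uqcrc1 it began at base 31 after the start. The ERR motif was in a complex V and a complex II gene, in both as its reverse complement, and these windows are shown because ERR works with the coactivator encoded by Ppargc1a, whose level is given further on:
Atp5g3 (complex V, chr2:73911360-73911389, minus strand): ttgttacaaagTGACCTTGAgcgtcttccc
Sdhd (complex II, chr9:50603800-50603829, minus strand): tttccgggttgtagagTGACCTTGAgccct

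A match describes the letters of the reference genome, which is not that of FVB mice, and binding of any factor was not measured.

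The diet was compared first. On the high-fat diet the subunit genes lay lower in both genotypes, but no single gene passed the test. All differences are on the log2(TPM + 1) scale, tested with limma across all 16932 genes (called at a Benjamini-Hochberg adjusted p of 0.05 or less), and p-values measure the spread between these few animals. In Null mice, 67 of the 79 genes were lower in Null_HFD than in Null_LFD, with a median difference of -0.25, while the median of all genes tested was 0.04. In WT mice, 76 of 79 were lower in WT_HFD than in WT_LFD, with a median of -0.49 against 0.20 for all genes. Averaged over the genotypes, 75 of 79 were lower, with a median of -0.35 against 0.11 for all genes. Rescaling by median ratios made the medians -0.31 in Null mice, where that of all genes became -0.01, and -0.70 in WT mice, where it became 0.02.

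Limma called 0 of the 79 genes in Null mice (0.00591% of all genes), 0 in WT mice (0% of all genes) and 0 for the mean of the genotypes (0%). At an unadjusted p under 0.05 there were 2 of 79 in Null mice, where 6.67% of all genes were below it, and 5 of 79 in WT mice, where 5.61% were. For the mean of the genotypes there were 24 of 79 (30.4%), against 9.69% of all genes, and 23 of these 24 were lower on the high-fat diet. The 24 were 8 genes of complex I, none of complex II, 6 of complex III, 6 of complex IV and 4 of complex V. Their adjusted p was 0.513 in limma for each.

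Ranges that do not overlap were counted as well. In Null mice 9 of 79 genes (11.4%) were lower without overlap, against 4.49% of all genes, and 2 (2.53%) higher, against 6.6%. In WT mice 54 of 79 (68.4%) were lower in both WT_HFD libraries than in both WT_LFD libraries, against 11.5% of all genes, and 2 (2.53%) were higher, against 33.7%. Over both genotypes together, only Ndufa7, an accessory subunit of complex I, was lower in all 5 high-fat than in all 5 low-fat libraries (0.413% of all genes), and only Cox6b2 was higher (1.59%).

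The size of the diet difference rested in part on the 2 libraries that stood apart. Without Null_HFD 3, 52 of 79 genes were lower in Null mice and the median was -0.10, and without WT_HFD 2, 69 of 79 were lower in WT mice and the median was -0.24. Without both, 67 of 79 genes were lower for the mean of the genotypes, with a median of -0.17 against 0.06 for all genes. Then 9 of 79 (11.4%) were lower without overlap in Null mice, where 8.81% of all genes were, and 55 of 79 (69.6%) in WT mice, where 1 WT_HFD library remained and 23% of all genes were. The same 2 libraries had the highest values of the lymph node genes and the lowest of the muscle, thermogenic fat and mitochondrially encoded genes, whose part in the result was not tested.

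By complex, the median difference of Null_HFD from Null_LFD was -0.23 for complex I, -0.13 for II, -0.40 for III, -0.30 for IV and -0.21 for V. For WT_HFD from WT_LFD it was -0.44 for complex I, -0.52 for II, -0.70 for III, -0.56 for IV and -0.47 for V. Complex III had the lowest median of the 5 in both genotypes, and all 8 of its genes were lower in both. In Null_HFD, 6 of 36 complex I genes and 1 of 4 complex II genes were higher than in Null_LFD, whereas in WT_HFD all of them were lower than in WT_LFD. No test was made between complexes.

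**Figure D3:**
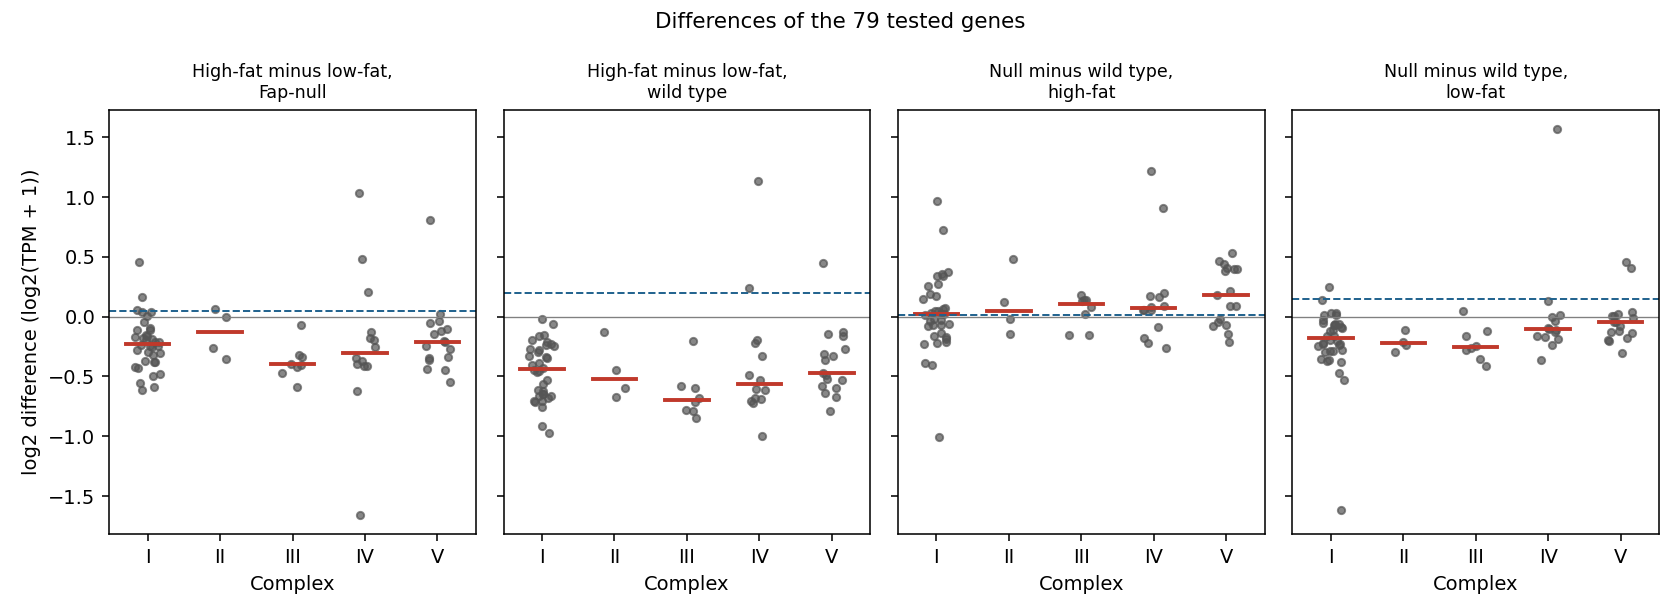
Differences on the log2(TPM + 1) scale (vertical axis) of the 79 tested genes by complex (horizontal axis) for the diet in each genotype and the genotype on each diet; points are genes, red bars medians of a complex, the dashed line the median of all 16932 genes tested. The diet points in WT mice lie mostly below 0 and below the dashed line, with complex III at -0.70, while the genotype medians of the complexes lie between -0.25 and 0.18, with Ndufa12 at -1.62 on the low-fat diet far below them.

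Within complex I the direction was shared by its arms when all libraries were kept. In Null_HFD, 7 of 8 genes of the NADH-oxidising module (median -0.18), 6 of 6 of the ubiquinone-binding module (-0.19) and 8 of 10 Ndufb genes of the membrane arm (-0.28) were lower than in Null_LFD. In WT_HFD all 8 (-0.31), all 6 (-0.45) and all 10 (-0.59) were lower than in WT_LFD. Without both WT_HFD 2 and Null_HFD 3, 4 of 8 (-0.02), 3 of 6 (-0.01) and 7 of 10 (-0.06) were lower in Null mice. In WT mice 6 of 8 (-0.11), 6 of 6 (-0.18) and 9 of 10 (-0.27) were then lower. The 75 kDa iron-sulfur subunit Ndufs1, a core of the NADH module, was at 178, 178 and 131 TPM in Null_HFD libraries, against 200.4, 165 and 210.5 TPM in Null_LFD libraries. It was at 213 and 164 TPM in WT_HFD libraries, against 253 and 217 TPM in WT_LFD libraries. The values overlapped between the diets in Null mice and did not in WT mice, where the difference was -0.33 (SE 0.24, limma adjusted p = 0.761).

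The flavoprotein Ndufv1, which binds NADH, overlapped between the diets in both genotypes: 178, 177 and 106 TPM in Null_HFD libraries, against 199.5, 138 and 188 TPM in Null_LFD libraries, and 170.4 and 127 TPM in WT_HFD libraries, against 205 and 159.9 TPM in WT_LFD libraries. Ndufs8, an iron-sulfur subunit at the ubiquinone end, was at 88.5 and 71.2 TPM in WT_HFD libraries, against 137 and 116 TPM in WT_LFD libraries. That difference was -0.66 (SE 0.24, limma adjusted p = 0.761). Ndufb5, of the membrane arm, had the smallest p among the complex I genes for the mean of the genotypes, at -0.60 (SE 0.19, limma adjusted p = 0.513). It was at 239, 261 and 164 TPM in Null_HFD libraries, against 341, 260.4 and 327 TPM in Null_LFD libraries, and at 285 and 183 TPM in WT_HFD libraries, against 386 and 362 TPM in WT_LFD libraries. Only Null_LFD 2 lay within the range of the high-fat libraries.

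Further accessory genes of complex I differed in which genotype the diets did not overlap. Ndufa1, an X-linked subunit, was at 211 and 182 TPM in WT_HFD libraries, against 317 and 305 TPM in WT_LFD libraries, a difference of -0.66 (SE 0.26, limma adjusted p = 0.761). In Null mice it overlapped, with 314, 241 and 201 TPM in Null_HFD libraries, against 270.0, 199 and 254 TPM in Null_LFD libraries, and the difference was 0.05. Ndufa6, an accessory subunit of the LYR family, did not overlap in Null mice, with 329.6, 279 and 250.02 TPM in Null_HFD libraries, against 436, 369 and 351 TPM in Null_LFD libraries. Its difference there was -0.43 (SE 0.20, limma adjusted p = 0.761). Ndufa7 was at 365, 369.9 and 218 TPM in Null_HFD libraries and 338 and 353 TPM in WT_HFD libraries, against 405, 382 and 409 TPM in Null_LFD libraries and 428 and 405 TPM in WT_LFD libraries. The highest high-fat value was thus close to the lowest low-fat value.

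In complex II, Sdha hardly moved with the diet. It was at 308, 293 and 223 TPM in Null_HFD libraries, against 316, 231 and 240.2 TPM in Null_LFD libraries, and at 301 and 252 TPM in WT_HFD libraries, against 297 and 303 TPM in WT_LFD libraries. The mean difference of -0.03 had an SE of 0.16 (limma adjusted p = 0.958). Sdhb, the iron-sulfur subunit, was at 266, 231 and 160.0 TPM in Null_HFD libraries, against 327, 219.9 and 289 TPM in Null_LFD libraries. It was at 293 and 193 TPM in WT_HFD libraries, against 335 and 313 TPM in WT_LFD libraries, with no overlap between the diets in WT mice only. Its mean difference was -0.40 (SE 0.20, limma adjusted p = 0.533).

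In complex III, Uqcrb, which sits near the ubiquinone site, had the lowest diet difference of the 8 genes, -0.72 for the mean of the genotypes (SE 0.25, limma adjusted p = 0.513). It was at 507, 380.2 and 257 TPM in Null_HFD libraries, against 669, 401 and 632 TPM in Null_LFD libraries, and at 505 and 331 TPM in WT_HFD libraries, against 722 and 749 TPM in WT_LFD libraries. The Rieske iron-sulfur protein gene Uqcrfs1 was at 204, 137 and 110.0 TPM in Null_HFD libraries, against 232, 144 and 181 TPM in Null_LFD libraries. It was at 172 and 103 TPM in WT_HFD libraries, against 229 and 208 TPM in WT_LFD libraries. The core protein gene Uqcrc1 differed least in this complex, at 132, 124 and 96.8 TPM in Null_HFD libraries, against 141, 104 and 125 TPM in Null_LFD libraries, and at 113 and 93.2 TPM in WT_HFD libraries, against 127 and 109.5 TPM in WT_LFD libraries. Its mean difference was -0.14 (SE 0.15, limma adjusted p = 0.740), and its ranges overlapped in both genotypes.

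In complex IV, the abundant Cox4i1 was at 1268, 1085 and 818 TPM in Null_HFD libraries, against 1352, 1031 and 1209 TPM in Null_LFD libraries. It was at 1179 and 1035 TPM in WT_HFD libraries, against 1254 and 1315 TPM in WT_LFD libraries, so that only the WT ranges were apart. The mean difference was -0.21 (SE 0.20, limma adjusted p = 0.708). The matrix-side subunits Cox5a and Cox5b lay further down, with mean differences of -0.55 (SE 0.20) and -0.51 (SE 0.22) and a limma adjusted p of 0.513 each. Cox5a was at 304, 277 and 209.7 TPM in Null_HFD libraries, against 407, 268 and 382 TPM in Null_LFD libraries, and at 268 and 199 TPM in WT_HFD libraries, against 438 and 314 TPM in WT_LFD libraries. Cox7c, a small membrane subunit, was at 806, 739 and 563 TPM in Null_HFD libraries, against 1189, 837 and 1221 TPM in Null_LFD libraries, without overlap, and the difference was -0.62 (SE 0.29, limma adjusted p = 0.761).

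In complex V the head, the stator with its membrane part and the c ring were all on the low side. All 5 head genes were lower on the high-fat diet in both genotypes, with a median of -0.10 in Null mice and -0.52 in WT mice. All 7 genes of the stator and membrane part were lower too, with -0.27 in Null mice and -0.53 in WT mice. Of the 3 c-ring genes, 2 were lower in Null mice (median -0.12) and 3 in WT mice (-0.36). Without both WT_HFD 2 and Null_HFD 3, 3 of 5 head genes were lower in Null mice (-0.09) and 5 of 5 in WT mice (-0.29). For the stator and membrane part it was then 6 of 7 (-0.18) and 7 of 7 (-0.26). For the c ring it was 2 of 3 (-0.10) and 3 of 3 (-0.22). Atp5b was at 1492, 1408 and 854 TPM in Null_HFD libraries, against 1389, 949 and 1463 TPM in Null_LFD libraries, where the ranges overlapped. It was at 1258 and 909 TPM in WT_HFD libraries, against 1654 and 1427 TPM in WT_LFD libraries, where they did not. The mean difference of -0.28 (SE 0.25) had a limma adjusted p of 0.680, and Atp5a1, at -0.40 (SE 0.19), one of 0.531. Atp5j2, of the membrane part, had a mean difference of -0.52 (SE 0.17, limma adjusted p = 0.513). Without WT_HFD 2 the complex V median in WT mice was -0.22.

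A few genes ran against the direction of the rest. Cox6b2, a form of subunit 6b known from testis, was at 3.43, 5.66 and 5.85 TPM in Null_HFD libraries, against 1.89, 2.38 and 1.4 TPM in Null_LFD libraries. It was at 5.27 and 6.92 TPM in WT_HFD libraries, against 1.33 and 3.4 TPM in WT_LFD libraries. All 5 high-fat libraries were above all 5 low-fat ones, with Null_HFD 1 just above WT_LFD 2. The difference was 1.04 in Null mice (SE 0.33, limma adjusted p = 0.708) and 1.14 in WT mice (SE 0.41, limma adjusted p = 0.761). Per 100 TPM of the common form Cox6b1, Cox6b2 made up 1.08 to 3.42 TPM on the high-fat diet, against 0.349 to 1.29 TPM on the low-fat diet, so the ranges of this ratio overlapped.

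Cox7a2l, which takes part in joining complexes III and IV into supercomplexes, was at 189, 187 and 305 TPM in Null_HFD libraries, against 191, 212 and 173 TPM in Null_LFD libraries. It was at 193 and 222 TPM in WT_HFD libraries, against 179 and 171 TPM in WT_LFD libraries. Its highest values were in Null_HFD 3 and WT_HFD 2, the libraries in which most subunit genes were lowest, and the mean difference of 0.22 (SE 0.17) did not pass limma (adjusted p = 0.627). Atp5sl had 18.1, 44.5 and 40.6 TPM in Null_HFD libraries, against 16.6, 27.3 and 12.6 TPM in Null_LFD libraries, and 27.5 and 21.2 TPM in WT_HFD libraries, against 21.4 and 14.2 TPM in WT_LFD libraries. Its ranges overlapped in both genotypes.

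The genotype was compared next, on each diet. Null and WT fat pads differed little in the subunit genes, and the direction was not the same on the 2 diets. On the high-fat diet 48 of 79 genes were higher in Null_HFD than in WT_HFD, with a median of 0.06 against 0.02 for all genes. On the low-fat diet 63 of 79 genes were lower in Null_LFD than in WT_LFD, with a median of -0.13, while the median of all genes was 0.15. With the libraries rescaled by their median ratios, which brings the median of all genes to 0.01, 75 of 79 were lower and their median was -0.28. Averaged over the diets 49 of 79 were lower, with a median of -0.04 against 0.08 for all genes, and 61 of 79 after this rescaling, with a median of -0.12. By complex, the high-fat medians were 0.02 for I, 0.05 for II, 0.11 for III, 0.07 for IV and 0.18 for V. The low-fat medians were -0.18 for I, -0.22 for II, -0.25 for III, -0.10 for IV and -0.05 for V.

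Limma called 0 of the 79 genes on the high-fat diet (0.0118% of all genes), 0 on the low-fat diet (0%) and 0 for the mean of the diets (0%). At an unadjusted p under 0.05 there were 3 of 79 on the high-fat diet (3.82% of all genes), 1 of 79 on the low-fat diet (4.43%) and 5 of 79 for the mean of the diets (4.19%), so none of these counts stood far from its background. On the high-fat diet 2 of 79 genes were lower in all Null libraries than in both WT libraries, against 7.78% of all genes, and 6 (7.59%) were higher, against 7.73%. On the low-fat diet 14 (17.7%) were lower, against 6.3% of all genes, and 1 was higher, against 19.1%.

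The low-fat result depended on single libraries. Without WT_LFD 1, 42 of 79 genes were lower and the median was -0.04, and without Null_LFD 2, again 42 of 79 were lower and the median was -0.01. In the 2 cases the medians of complexes IV and V were above 0, at 0.09 and 0.13 without WT_LFD 1 and at 0.02 and 0.06 without Null_LFD 2. On the high-fat diet the median was -0.18 without WT_HFD 2 and 0.26 without Null_HFD 3. Without both of these libraries, 37 of 79 genes were lower and the median was 0.02, and 30 genes (38%) were higher and 22 (27.8%) lower without overlap, against 38.4% and 26.7% of all genes.

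Ndufa12 stood out among the 79 genes. It encodes an accessory subunit of complex I at the NADH end of the matrix arm and lies at chr10:94198720-94221443 on the plus strand (GRCm38, GENCODE M21). It was at 57.1, 65.1 and 37.4 TPM in Null_HFD libraries, against 137 and 80.6 TPM in WT_HFD libraries. It was at 60.3, 41.3 and 68.4 TPM in Null_LFD libraries, against 165 and 179.6 TPM in WT_LFD libraries. All 6 Null libraries were below all 4 WT libraries, which holds for no other of the 79 genes and for 0.378% of all genes in this direction.

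The Ndufa12 difference was -1.01 on the high-fat diet (SE 0.32, limma adjusted p = 1), -1.62 on the low-fat diet (SE 0.32, limma adjusted p = 0.721) and -1.31 for the mean of the diets (SE 0.23). The unadjusted p of the mean was 0.000241 in limma, the smallest of the 79 genes in this comparison, and the adjusted p was 0.315. Over 18 alternative settings the mean difference ran between -1.504 and -1.12 and the limma adjusted p between 0.145 and 1.00. The high-fat difference ran between -1.39 without WT_HFD 2 and -0.63 without WT_HFD 1. Set against the core subunit Ndufs1, Ndufa12 was at 28.5 to 36.7 TPM per 100 TPM in Null_HFD libraries and 49.3 to 64.6 in WT_HFD libraries. It was at 25.1 to 32.5 in Null_LFD libraries and 65.3 to 82.8 in WT_LFD libraries. The genes tested on either side of it on chromosome 10, 10 in all, overlapped between the genotypes. Its closest tested neighbours, Nr2c1 and Tmcc3, had differences of -0.05 (SE 0.19) and -0.11 (SE 0.28). The ratio and the neighbours were chosen after the values of Ndufa12 were seen.

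**Figure D4:**
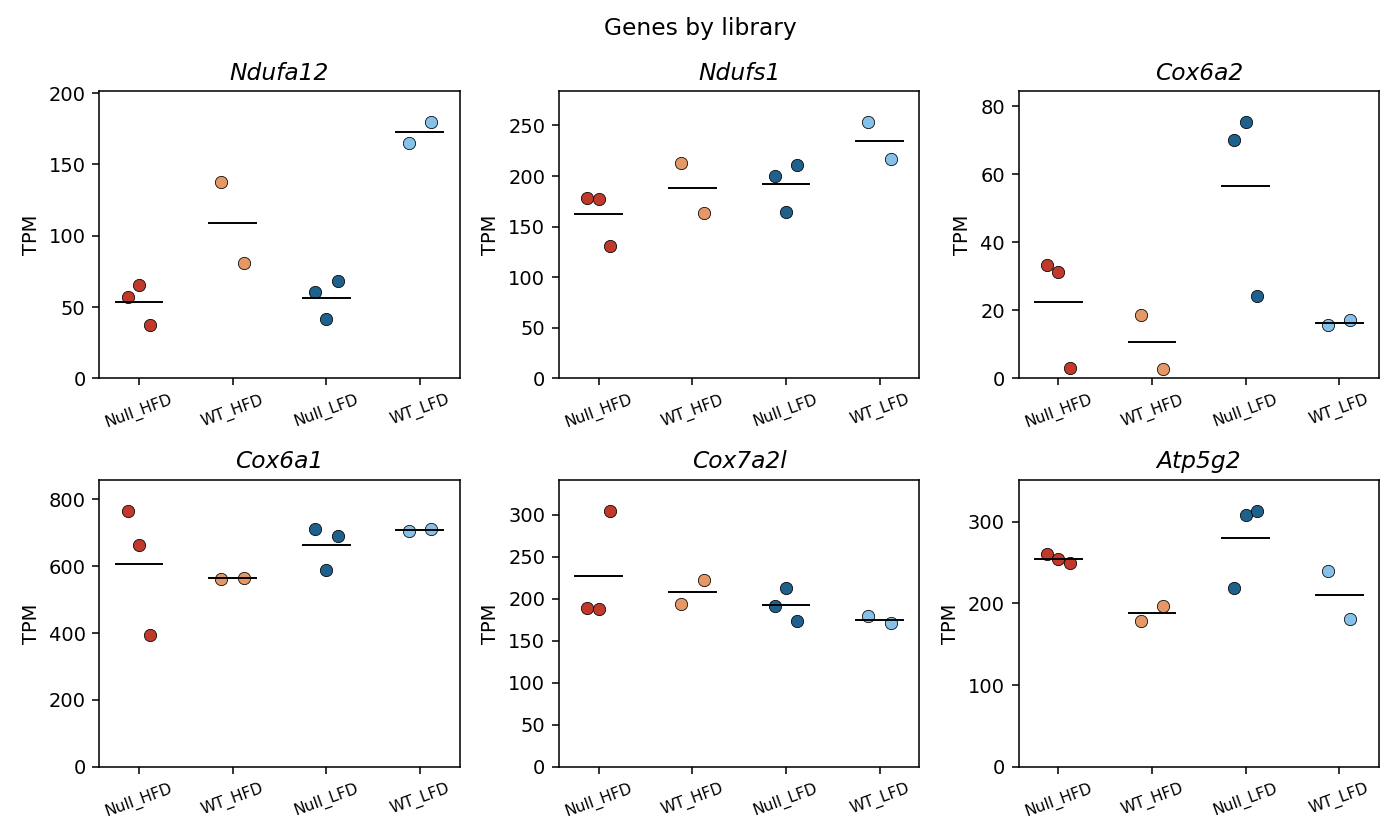
Levels in TPM (vertical axes, from 0) of 6 genes in each library, by group (horizontal axes); points are libraries and bars group means. Ndufa12 lies below 70 TPM in all 6 Null libraries and above 80 TPM in all 4 WT libraries, Cox6a2 is below 3 TPM in Null_HFD 3 and WT_HFD 2, and Cox7a2l is highest in Null_HFD 3.

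Ndufs5, another accessory subunit of complex I, was lower in Null mice on each diet without overlap. It was at 206, 206 and 149 TPM in Null_HFD libraries, against 275 and 218 TPM in WT_HFD libraries, and at 253, 239 and 203 TPM in Null_LFD libraries, against 299 and 343 TPM in WT_LFD libraries. The mean difference was -0.44 (SE 0.16, limma adjusted p = 0.980). Over the 8 genes of the NADH module, to which Ndufa12 belongs, the median was -0.0036 on the high-fat diet and -0.10 on the low-fat diet.

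The c ring of complex V, which turns as protons pass, was on the high side in Null mice. Its protein is encoded by 3 genes, and all 3 were higher in Null than in WT libraries on both diets in the deposited values. The median was 0.40 on the high-fat diet (0.23 without both WT_HFD 2 and Null_HFD 3) and 0.41 on the low-fat diet. On the high-fat diet none of the 3 overlapped. Of the 79 genes 7.59% were higher without overlap there, against 7.73% of all genes, so over the whole set this was no more than the background. Atp5g3 on the low-fat diet was at 0.00 and turned to -0.15 and -0.07 when the libraries were rescaled by their median ratios or without mitochondrially encoded genes. Atp5g2 was at 261, 255 and 249.5 TPM in Null_HFD libraries, against 179 and 197 TPM in WT_HFD libraries, without overlap. It was at 219, 308 and 314 TPM in Null_LFD libraries, against 240.3 and 181 TPM in WT_LFD libraries, with overlap. Atp5g1 was at 121, 132 and 122 TPM in Null_HFD libraries, against 107 and 82.8 TPM in WT_HFD libraries. It was at 167, 155 and 234 TPM in Null_LFD libraries, against 160.2 and 109.7 TPM in WT_LFD libraries. The mean differences of Atp5g2 and Atp5g1 were 0.42 (SE 0.15) and 0.43 (SE 0.17), each with a limma adjusted p of 0.980. The 5 head genes showed no such direction, with medians of 0.18 on the high-fat diet and -0.04 on the low-fat diet.

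Cox6a2, the heart and skeletal muscle form of subunit 6a, was at 33.2, 31.3 and 2.92 TPM in Null_HFD libraries, against 18.8 and 2.83 TPM in WT_HFD libraries. It was at 70.0, 75.3 and 24.2 TPM in Null_LFD libraries, against 15.6 and 17.2 TPM in WT_LFD libraries. It was the only gene of the 79 that was higher without overlap in Null_LFD, at 1.57 (SE 1.00, limma adjusted p = 0.949). All 17 skeletal muscle markers were also higher in Null_LFD than in WT_LFD (median 1.35), with summed levels of 4824 to 13408 TPM in Null_LFD and 2893 to 4238 TPM in WT_LFD libraries. Their part in the Cox6a2 difference was not tested. The common form Cox6a1 was at 712, 588 and 691 TPM in Null_LFD libraries, against 704 and 711 TPM in WT_LFD libraries, so that Cox6a2 made up 3.5 to 12.8 TPM per 100 TPM of Cox6a1 in Null_LFD and 2.21 to 2.41 in WT_LFD libraries.

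Cox4i2 and Ndufa4l2, both known to respond to low oxygen, were scarce. Cox4i2 was at 4.09, 5.1 and 3.95 TPM in Null_HFD libraries, against 1.48 and 1.13 TPM in WT_HFD libraries, a difference of 1.22 (SE 0.38, limma adjusted p = 1). It was at 1.83, 3.78 and 3.15 TPM in Null_LFD libraries, against 4.36 and 1.67 TPM in WT_LFD libraries, with overlap. Ndufa4l2 was at 3.85, 8.47 and 4.07 TPM in Null_HFD libraries, against 2.65 and 1.72 TPM in WT_HFD libraries, a difference of 0.97 (SE 0.38, limma adjusted p = 1). At these levels a few reads decide the value, and TPM does not show how many there were.

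The interaction asks whether the diet acted differently in the genotypes. The difference of Null_HFD from Null_LFD minus that of WT_HFD from WT_LFD was above 0 for 65 of 79 genes, with a median of 0.19, while the median of all genes was -0.13. After rescaling by median ratios it was above 0 for 77 of 79. By complex the median was 0.10 for I, 0.30 for II, 0.25 for III, 0.17 for IV and 0.12 for V. The medians of complexes I and III turned to -0.05 and -0.03 without WT_HFD 2. Limma called 0 of 79 (0% of all genes), and 0 of 79 had an unadjusted p under 0.05, against 4.14% of all genes. Without WT_HFD 2, 44 of 79 genes were below 0 and the median was -0.02, and without both WT_HFD 2 and Null_HFD 3, 60 of 79 were above 0 and the median was 0.16, against -0.07 for all genes.

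Genes that work beside the subunits were read from lists. The acyl carrier Ndufab1 and cytochrome c1, Cyc1, are true subunits whose symbols the selection did not catch. Ndufab1 was at 268, 233 and 125 TPM in Null_HFD libraries, against 305, 249 and 317 TPM in Null_LFD libraries, and at 322 and 154 TPM in WT_HFD libraries, against 348 and 379 TPM in WT_LFD libraries. Cyc1 was at 162, 149 and 94.0 TPM in Null_HFD libraries, against 167, 104 and 168 TPM in Null_LFD libraries, and at 137 and 91.2 TPM in WT_HFD libraries, against 178 and 124 TPM in WT_LFD libraries. Both were lowest in Null_HFD 3 and WT_HFD 2, as were most of the 79 genes.

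The 12 tested genes of the mitochondrial genome that encode subunits were lower on the high-fat diet in both genotypes, 12 of 12, with a median of -0.28 in Null mice and -0.59 in WT mice. Without both WT_HFD 2 and Null_HFD 3, 2 of 12 were lower in Null mice, with a median of 0.15, and 11 of 12 in WT mice, with a median of -0.24, so the direction in Null mice turned. On the high-fat diet 10 of 12 were lower in Null than in WT mice (median -0.48), or 11 of 12 (-0.33) without those 2 libraries, and 12 of 12 on the low-fat diet (-0.67). The core subunit mt-Co1 of complex IV was at 25043, 18109 and 10983 TPM in Null_HFD libraries, against 27416 and 19262 TPM in WT_HFD libraries. It was at 30406, 23526 and 20632 TPM in Null_LFD libraries, against 36155 and 43542 TPM in WT_LFD libraries. All 3 Null_LFD libraries were below both WT_LFD libraries. Limma called 0 of the 12 in any of the 7 comparisons, and the number with an unadjusted p under 0.05 was highest for the diet in WT mice, 2 of 12, against 5.61% of all genes. These genes made up 3.36% to 13.8% of TPM, so a rise or fall in them moves every nuclear gene the other way.

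Of the 13 citric acid cycle enzymes, 7 were lower in Null_HFD than in Null_LFD (median -0.08) and 13 in WT_HFD than in WT_LFD (-0.44). Without both WT_HFD 2 and Null_HFD 3, 2 of 13 were lower in Null mice (0.23) and 12 in WT mice (-0.27). On the low-fat diet 12 of 13 were lower in Null than in WT mice (-0.36). Of the 77 mitochondrial ribosome genes, 55 were lower in Null_HFD than in Null_LFD (-0.09) and 65 in WT_HFD than in WT_LFD (-0.26). Of the 42 tested assembly factors, 22 were lower in Null_HFD than in Null_LFD (-0.01) and 29 in WT_HFD than in WT_LFD (-0.21). Leaving out the same 2 libraries, 51 of the 77 ribosome genes were lower in Null mice (-0.08) and 58 in WT mice (-0.13). Of the assembly factors 16 were then lower in Null mice (0.05) and 30 in WT mice (-0.13), so the Null median turned above 0. Limma called 0 genes of these 3 lists in the 4 comparisons within a diet or genotype, and at an unadjusted p under 0.05 it had at most 6 of the 77, 3 of the 42 and 0 of the 13, against 3.82% to 6.67% of all genes in these comparisons.

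The transcriptional regulators did not move as a group, with 7 of 14 higher in Null_HFD than in Null_LFD and 9 of 14 higher in WT_HFD than in WT_LFD. Ppargc1a, the coactivator PGC-1α that drives mitochondrial biogenesis, was at 21.8, 10.2 and 1.42 TPM in Null_HFD libraries, against 8.61, 6.37 and 5.29 TPM in Null_LFD libraries. It was at 15.8 and 4.4 TPM in WT_HFD libraries, against 13.7 and 44.7 TPM in WT_LFD libraries. Nrf1, which encodes NRF-1, had its highest values in the libraries where the subunits were lowest, 59.5 TPM in Null_HFD 3 and 62.8 TPM in WT_HFD 2, against 19.6 to 36.7 TPM in the other 8. Limma called 0 of the 14 in each of these diet comparisons, and 0 had an unadjusted p under 0.05 in Null mice and 1 in WT mice.

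**Figure D5:**
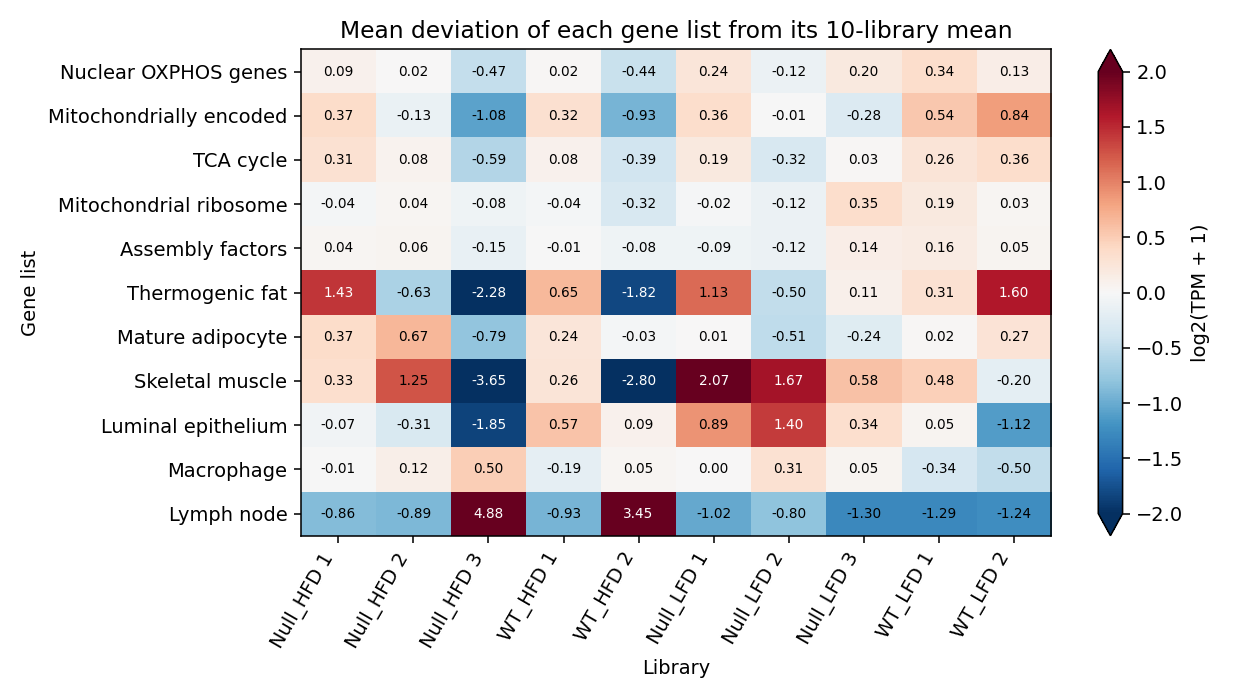
Mean deviation of each gene list from its own mean over the 10 libraries (log2(TPM + 1)), with libraries in columns and lists in rows; colours saturate at 2 in either direction. The nuclear subunit genes are lowest in Null_HFD 3 (-0.47) and WT_HFD 2 (-0.44), where the lymph node list is highest (4.88 and 3.45) and the muscle list lowest (-3.65 and -2.80).

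Lymph node, thermogenic fat and muscle markers stood apart in Null_HFD 3 and WT_HFD 2. The mean deviation of the 17 lymph node markers was 4.88 in Null_HFD 3 and 3.45 in WT_HFD 2, and the summed level of these markers was 50.9 to 4677 TPM in Null_HFD, 46.8 to 1922 TPM in WT_HFD, 34.4 to 86.5 TPM in Null_LFD and 34.6 to 38.4 TPM in WT_LFD libraries. The 11 thermogenic fat markers were at -2.28 in Null_HFD 3 and -1.82 in WT_HFD 2, and their summed level was 117 to 1646 TPM in Null_HFD, 246 to 1086 TPM in WT_HFD, 505 to 1348 TPM in Null_LFD and 801 to 2085 TPM in WT_LFD libraries. The uncoupling protein gene Ucp1, which marks brown and beige adipocytes, was at 567, 49.2 and 1.35 TPM in Null_HFD libraries, against 219, 56.1 and 125 TPM in Null_LFD libraries. It was at 266 and 3.69 TPM in WT_HFD libraries, against 153 and 859.8 TPM in WT_LFD libraries. The muscle markers summed to 176 to 7122 TPM in Null_HFD, 382 to 4259 TPM in WT_HFD, 4824 to 13408 TPM in Null_LFD and 2893 to 4238 TPM in WT_LFD libraries. The 14 luminal epithelium markers varied in other libraries too, with a mean deviation of 1.40 in Null_LFD 2 and -1.85 in Null_HFD 3. On the low-fat diet 12 of 14 were higher in Null than in WT mice (median 1.28). On the high-fat diet 14 of 14 were lower (-1.09), or 13 of 14 (-0.66) without both WT_HFD 2 and Null_HFD 3. Limma called 0 of the 14 on either diet (0% and 0.0118% of all genes). No muscle and no thermogenic marker was at 0 in any library, and the part of these cell types in the subunit differences was not tested.

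Cox7a1 and Cox8b, subunit forms of muscle and brown fat that were kept out of the selection, are part of the thermogenic list. Cox7a1 was at 130.01, 25.8 and 12.0 TPM in Null_HFD libraries, against 124, 43.8 and 61.1 TPM in Null_LFD libraries, and at 62.6 and 12.8 TPM in WT_HFD libraries, against 73.2 and 54.6 TPM in WT_LFD libraries. Cox8b was at 504, 285 and 79.05 TPM in Null_HFD libraries, against 479.6, 260.0 and 257 TPM in Null_LFD libraries, and at 429 and 192 TPM in WT_HFD libraries, against 353 and 574 TPM in WT_LFD libraries. Both had their lowest values in Null_HFD 3 and WT_HFD 2. The mature adipocyte markers were lowest in Null_HFD 3, at a mean deviation of -0.79, but not in WT_HFD 2, at -0.03.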

How the data were processed

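The authors deposited 1 table for 10 libraries, with log2(TPM + 1) values as inferred from their range and sums. Build GRCm38 and the tools kallisto and limma are named per the submitters' processing notes, without versions. The TPM values were recovered by undoing the logarithm, and TPM keeps no read depth, so the depth is unknown. Libraries were grouped by genotype and diet, as the labels give them.

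A gene entered the test with 1 TPM or more in 2 or more libraries (16932 of 30319). The model was limma's (version 3.58.1, in R 4.3.3), with a mean per group, a variance trend and 6 residual degrees of freedom. All 7 comparisons were two-sided, with Benjamini-Hochberg adjustment over all genes, called at 0.05. Differences on the log2(TPM + 1) scale understate changes of low genes. The script was tested on simulated data. Alternatives were another pseudocount (0.1), no filter, 2 rescalings, no trend, sample weights, a replicate block and leaving out libraries. Complexes and lists are described by counts and medians. Named were the 2 most abundant genes of each complex, core subunits, tissue forms, and the 3 genes with the smallest p in each direction per simple comparison. Uqcrb, Ndufa7 and Atp5j2 fall outside these rules and were named with their diet values known. The genes, lists and rules were chosen with earlier results of these data known. List and arm values and overlap counts without both WT_HFD 2 and Null_HFD 3, and rescaled list and arm medians, were added after seeing the data. The 81 symbols found in GENCODE M21 give coordinates. The labels give no sequencing batch.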

Additional observations from a re-analysis of the deposited data

Results flagged for a closer look

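Cox4i2, the form of cytochrome c oxidase subunit 4 known to respond to low oxygen, was the single gene of the 79 in which the diets did not overlap in either genotype and lay in opposite orders in Null and WT mice. Its interaction was 1.204 on the log2(TPM + 1) scale, because Null_HFD lay above Null_LFD by 0.48 while WT_HFD lay below WT_LFD by a difference of -0.72. The interaction had an SE of 0.54 and did not pass limma (unadjusted p = 0.0512, adjusted p = 1.00). The gene was at 1.13 to 5.1 TPM in the 10 libraries. It was flagged from the same values that named it. How many of all genes tested show such opposite orders was not counted, so the pattern cannot be set against a background.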

How the results depend on the processing

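The count of subunit genes called by limma was 0 under each of the 126 alternative values. Of 630 alternative values of complex medians, 626 moved by less than the spread between libraries. That spread was 0.24 to 0.35, larger than the genotype and interaction medians of each complex. Some settings cannot move a median, such as leaving out a library of a group outside the comparison. The count of 626 therefore does not show that a direction held. Leaving out single libraries, the complex V diet median in WT mice ran between -0.67 and -0.22, and it was also -0.22 without both WT_HFD 2 and Null_HFD 3. The complex I interaction median ran between -0.051 and 0.43, and that of complex V between 0.026 and 0.36, both highest without WT_HFD 1. These limits come from groups of 2 and 3. The diet medians kept their sign in WT mice for all 5 complexes under the settings run, and in Null mice for all but complex II, at 0.04 with sample weights and 0.01 without Null_HFD 3, alone or with WT_HFD 2. Genotype medians of complexes I to V changed sign more often, among them complex I on the high-fat diet, at -0.21 without WT_HFD 2. With a replicate block the genotype mean was 0.01 with 45 of 79 genes higher, and 0 genes were called. The labels state no pairing of same-numbered libraries. Correlations of their deviations from the group means ran between -0.346 and 0.412. In a WT group of 2 libraries these deviations mirror each other, so the correlations do not decide whether a pairing exists.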
